A study of Mus musculus with 4 samples.

Results

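The 9 genes described here encode transcription factors of the eye field and of the retinal progenitor cell: Pax6 and Pax2, Rax, Six3 and Six6, Vsx1, Sox2, and Meis1 and Meis2. They were chosen by name, and all 9 of them were found among the 25239 gene IDs of the deposited tables. Levels came from RNA sequencing of dissected mouse retina at E13.5 (E, embryonic day). There were 2 control libraries and 2 that carry the label Isl1cKO, meaning retina without Isl1 in the words of the series. The labels give no strain, no sex, no Cre driver and no allele, and do not say how many embryos went into a library or whether the libraries came from separate animals, so that p-values measure only the spread between these libraries.

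The eye field is the region of the anterior neural plate from which both eyes form, and it is marked by the joint expression of Rax, Pax6, Six3, Six6 and Lhx2. In the optic cup these factors persist in retinal progenitor cells, where Sox2 keeps the cells neurally competent, and Meis1 and Meis2 act as cofactors of other homeodomain proteins. Pax2 is restricted early to the optic stalk, whereas Pax6 occupies the cup and is later retained in ganglion and amacrine cells. Isl1, a LIM-homeodomain factor, acts after cell cycle exit, mainly in ganglion cells at this stage.

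Levels are given in TPM, a unit that corrects for transcript length and gives each library the same total. Isl1 itself measured 242 and 201 TPM in control, and 321 and 223 TPM in the Isl1cKO-labelled pair (log2 fold change 0.28, SE 0.21, adjusted p-value in limma 0.683). Leaving out Isl1cKO replicate 1 gave 0.014, and leaving out its replicate 2 gave 0.54. The deleted gene was therefore not lower in the Isl1cKO-labelled libraries, and every direction below rests on the labels. Aligned sequence per library ranged from 12.6 to 14.3 gigabases, and Isl1cKO replicate 2 had the least of it as well as the fewest genes at 1 TPM or more (13554, against 13816 to 13932 in the others). The retinal markers Lhx2 (174 to 211 TPM), Atoh7 (1025 to 1458 TPM) and Pou4f2 (120 to 135 TPM) were present in each library. Several lists of markers of other cells differed between the groups. The sum of 10 lens genes was 198 and 241 TPM in the controls against 11.0 and 7.87 TPM in the Isl1cKO-labelled libraries, and 6 passed. The sum of 10 ganglion cell genes was 4611 and 4428 TPM against 2953 and 2780 TPM, and 0 passed. Of these 10, 7 had an unadjusted p-value under 0.05 in limma. Both Isl1cKO-labelled values lay below both controls for 8, and the median log2 fold change was -1.03. With FPKM 2 of the 10 passed, with a mean-variance trend 3, and with the replicate number as a block 4. Under the other settings that kept every library, 0 passed. That list includes Atoh7 and Pou4f2, with log2 fold changes of 0.08 and 0.02. Of 6 tested amacrine genes 0 passed, with 5 fold changes below 0 and 1 above. Of 6 endothelial genes 2 were tested and 0 passed, with sums of 83.6 and 63.9 TPM against 62.7 and 59.3 TPM. Most of each sum was Kdr, at 69.0 and 57.0 TPM against 56.7 and 55.5 TPM. Below the filter, Cdh5 measured 2.55 and 0.357 TPM against 0.211 and 0 TPM, and Emcn 2.16 and 0.383 TPM against 0.175 and 0 TPM. Each gene of this list was highest in control replicate 1 and lowest in Isl1cKO replicate 2. The sum of 5 red blood cell genes was 2371 and 3315 TPM against 1184 and 177 TPM, lowest in Isl1cKO replicate 2, and 0 of the 4 tested passed. Of 6 ciliary margin genes 0 passed, with a median log2 fold change of 0.37 and sums of 232 and 276 TPM against 305 and 396 TPM. Lens cells also express Pax6, Six3, Sox2 and Meis factors. The part of carried-over lens, or of the cells marked by the other lists, in the values below was not tested. Of 9 periocular mesenchyme genes, 7 failed the filter on low values, with Foxc1 and Foxc2 below 1 TPM in each library. Of 8 pigment epithelium genes, 6 were tested and 0 passed, with a median log2 fold change of -0.29. Their sums were 44.6 and 37.6 TPM in control against 36.4 and 27.0 TPM in the Isl1cKO-labelled libraries. Among them Rpe65 was listed at 0 throughout, while Pmel ranged from 13.2 to 25.6 TPM. In bulk tissue, fewer cells of a type and less RNA per cell cannot be told apart.

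The sequence just upstream of the start site is shown for Six3 and Six6, whose ratio lay on opposite sides of 1 in the groups, and for Meis1, the factor with the smallest unadjusted p-value. The runs are the 250 bases before the RefSeq start (mouse build GRCm38.p6), 5′ to 3′ on the strand of the gene, at chr17:85620584-85620833 (plus), chr12:72939632-72939881 (plus) and chr11:19018970-19019219 (minus). Capitals mark the core letters bound by Meis proteins, TGACAG on either strand.
Six3: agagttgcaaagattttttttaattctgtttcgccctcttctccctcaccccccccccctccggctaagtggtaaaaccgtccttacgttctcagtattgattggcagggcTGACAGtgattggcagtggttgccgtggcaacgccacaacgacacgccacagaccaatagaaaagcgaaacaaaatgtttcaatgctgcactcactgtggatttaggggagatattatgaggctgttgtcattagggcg
Six6: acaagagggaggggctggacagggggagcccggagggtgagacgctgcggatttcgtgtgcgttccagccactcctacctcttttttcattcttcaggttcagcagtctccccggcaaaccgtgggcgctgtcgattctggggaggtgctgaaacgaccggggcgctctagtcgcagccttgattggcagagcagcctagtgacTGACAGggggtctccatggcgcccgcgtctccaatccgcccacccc
Meis1: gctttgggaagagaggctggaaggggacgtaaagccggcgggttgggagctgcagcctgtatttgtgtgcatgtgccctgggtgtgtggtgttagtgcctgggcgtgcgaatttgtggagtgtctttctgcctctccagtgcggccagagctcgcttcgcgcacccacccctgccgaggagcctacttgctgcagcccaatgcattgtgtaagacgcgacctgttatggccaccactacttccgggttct
TGACAG was found once in the Six3 run, 139 bases before the start, and once in the Six6 run, 46 bases before it. It was found in 15.9% of the 32851 promoter runs of the same length in the table. The Sox2 run and 1 of the Pax6 runs (the start at the internal promoter) held it once each, and those of Meis1, Meis2, Pax2 and Vsx1 did not. Searched on both strands were TAATTA (a homeodomain core, in 4.84% of all runs), ATTGTT (a Sox core, 9.42%) and TAATCC (another homeodomain core, 6.25%). They occurred in none of the 11 runs of these genes. The runs upstream of Six3 and Six6 share ttgattggcag, 11 bases that begin 153 bases before the start of Six3 and 71 before that of Six6. These letters, picked after the sequences had been compared, were found in 11 of the 32851 runs. Such matches describe letters and do not show binding.

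Of the 9 factors, 6 had a mean above 100 TPM. In order of their mean over the 4 libraries, Pax6 stood at 571 TPM, Rax at 430, Sox2 at 360, Six6 at 220, Six3 at 212 and Meis1 at 144 TPM, and after a gap Meis2 at 18.6, Pax2 at 7.29 and Vsx1 at 0.341 TPM. Pax6 ranked between 195 and 233 among all gene IDs, and Rax between 271 and 345. Each gene was above the next in all 4 libraries, with the exception of Six6 and Six3, which changed places: Six3 was the higher in both controls and Six6 in both libraries labelled Isl1cKO. The ranges of Rax (404.5 to 477 TPM) and Sox2 (281 to 428 TPM) overlapped over the libraries, although Rax was above Sox2 within each one. The plot of levels by library shows the steps between Meis1, Meis2, Pax2 and Vsx1 on a log axis.

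**Figure D1:**
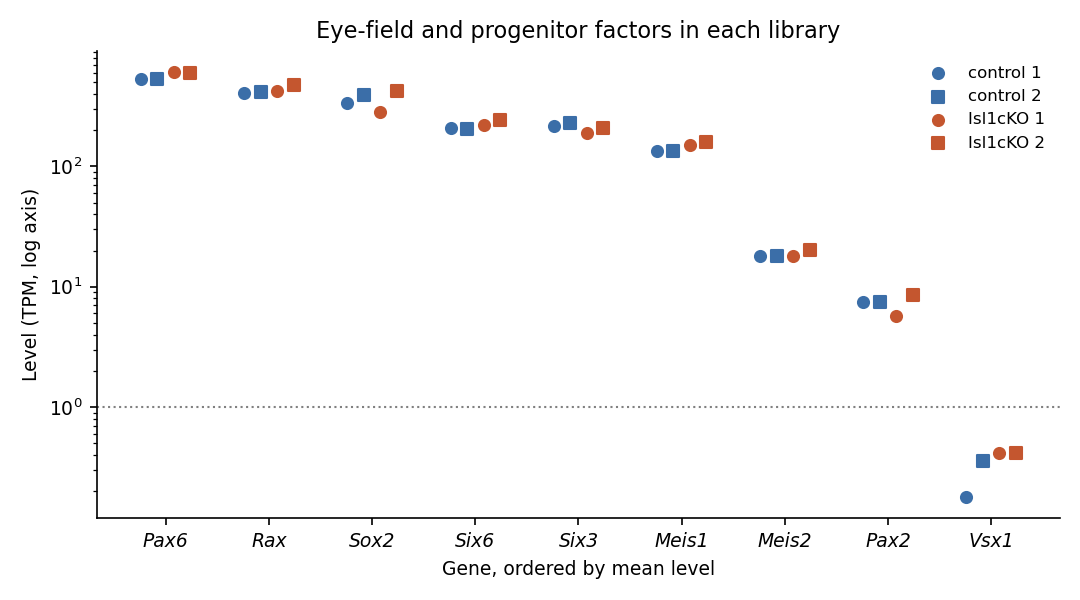
Level of each factor in TPM (vertical log axis) in the 4 libraries, with genes ordered by mean; circles are replicate 1 and squares replicate 2, and the dotted line is the filter of 1 TPM. Points of 1 gene lie close together compared with the distance between Meis1 at 144 TPM and Vsx1 at 0.341 TPM.

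Between the groups, no factor passed the test. Of the 9, 8 passed the filter of 1 TPM in at least 2 libraries and were tested with limma on log2(TPM + 1), and 0 of these 8 had an adjusted p-value under 0.05, where 0.493% of all 13984 tested genes did. At an unadjusted p-value under 0.05 in limma the count was also 0, beside 1694 of all 13984 tested genes. Other settings gave up to 3 (Pax6, Six6 and Meis1 with a mean-variance trend, beside 1751 of 13984 genes). FPKM gave 2 (Pax6 and Meis1, beside 1546 of 12472 genes). Unadjusted counts of the lists above and below are to be read beside the 1694 of 13984. The log2 fold changes on this scale ran from -0.17 for Six3 to 0.20 for Meis1, with a median of 0.11 over the 8, beside -0.05 over all tested genes. Leaving out Isl1cKO replicate 1 moved that median to 0.20, and leaving out Isl1cKO replicate 2 to 0.03. Both values of one group lay beyond both of the other in 5 of the 8, 4 of them higher and 1 lower with the Isl1cKO label. The same held for 44.9% of all tested genes, 14.9% higher and 30.0% lower.

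**Figure D2:**
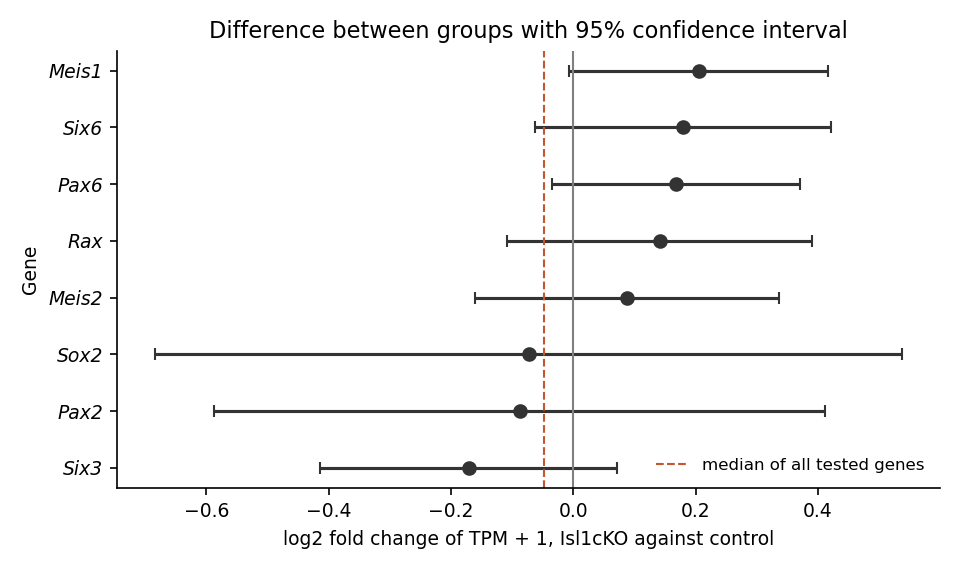
Log2 fold change of TPM + 1 between libraries labelled Isl1cKO and control (horizontal axis) for the 8 tested factors, with 95% confidence intervals from limma; the dashed line is the median of all tested genes, -0.05. Each interval includes 0, and those of Sox2 and Pax2 are the widest.

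Pax6, the paired-homeodomain factor that progenitors need for multipotency (chromosome 2, 105668896 to 105698410, plus strand), measured 537 and 539 TPM in control, and 610.1 and 598 TPM in the Isl1cKO-labelled libraries. Both of the latter were above both controls, which differed from each other by 0.332% of their mean. The means were 538 ± 1.26 and 604 ± 8.27 TPM (SD, n = 2 each), 12.4% apart. The log2 fold change was 0.17 (SE 0.08), with an interval equal to 0.976-fold to 1.29-fold and an adjusted p-value in limma of 0.486. Of all tested genes, 33.1% had a larger absolute change.

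Meis1, a TALE homeodomain factor of progenitors (chromosome 11, 18880428 to 19018969, minus strand), measured 134.1 and 134.0 TPM in control, and 151 and 158 TPM in the Isl1cKO-labelled libraries. The groups did not overlap. Its log2 fold change of 0.20 (SE 0.08) had an interval equal to 0.995-fold to 1.33-fold and the smallest p-value of the factors, 0.0549 unadjusted and 0.426 adjusted in limma. Its relative Meis2 (chromosome 2, 115861264 to 116067444, minus strand), which also marks later amacrine and ganglion subtypes, measured 18.1 and 17.9 TPM in control, and 18.1 and 20.4 TPM in the Isl1cKO-labelled libraries. Here the groups overlapped, and the log2 fold change was 0.09 (SE 0.09), with an adjusted p-value in limma of 0.769, and ranged from 0.0064 without Isl1cKO replicate 2 to 0.17 without Isl1cKO replicate 1. Meis1 was 7.41 and 7.48 times Meis2 in the controls and 8.34 and 7.78 times Meis2 in the Isl1cKO-labelled libraries.

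Among 13116 other tested genes, the 3 whose centred log2(TPM + 1) lay closest to that of Meis1 over the 4 libraries were Creg1, Dlx2 and Akr7a5, at Euclidean distances of 0.00831, 0.0194 and 0.0195 on the log2 scale. Dlx2, a homeobox gene, measured 44.2 and 44.7 TPM in control, and 50.8 and 53.0 TPM in the Isl1cKO-labelled libraries. With 4 libraries such closeness is a description only.

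Rax, the retinal homeobox factor that starts eye formation (chromosome 18, 65934639 to 65939089, minus strand), measured 404.5 and 412 TPM in control, and 426 and 477 TPM in the Isl1cKO-labelled libraries. The groups did not overlap, but Isl1cKO replicate 1 exceeded control replicate 2 by 0.05 on the log2 scale, while the 2 libraries labelled Isl1cKO differed by 0.16. The log2 fold change of 0.14 (SE 0.09) had an adjusted p-value in limma of 0.636. Dropping Isl1cKO replicate 2 lowered it to 0.06, and dropping replicate 1 raised it to 0.22.

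The sine oculis factors Six3 and Six6 had fold changes of opposite sign, and neither passed the test. Six3, which represses Wnt signalling in the forebrain to allow eye formation (chromosome 17, 85620834 to 85626191, plus strand), measured 217 and 232 TPM in control, and 191 and 208 TPM in the Isl1cKO-labelled libraries. Both of the latter were below both controls. Its log2 fold change was -0.17 (SE 0.09), with an interval equal to 0.750-fold to 1.05-fold and an adjusted p-value in limma of 0.555. Six6, which sustains progenitor proliferation (chromosome 12, 72939882 to 72944899, plus strand), measured 207 and 204 TPM in control, and 221 and 245 TPM in the Isl1cKO-labelled libraries, above both controls in each. Its log2 fold change was 0.18 (SE 0.09), with an adjusted p-value in limma of 0.531. Without Isl1cKO replicate 2 it was 0.10, and over the left-out libraries that of Six3 ran from -0.23 to -0.11, the latter without Isl1cKO replicate 1.

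The ratio of Six3 to Six6 within a library, which does not depend on how the library is scaled, was 1.05 and 1.14 in the controls and 0.863 and 0.846 in the Isl1cKO-labelled libraries. The means were 1.09 ± 0.0627 and 0.854 ± 0.0125 (SD, n = 2 each), a difference of -0.35 on the log2 scale. An exact two-sided permutation test gave p = 0.333, the smallest p that 2 libraries against 2 allow, and 0.444 after adjustment over the 4 ratios examined, 3 of which are given here. Leaving out each library in turn gave differences from -0.41 to -0.29. The coding sequences of both genes in GENCODE M21 were identical at 77.0% of aligned bases, with no shared window of 31 bases. The longest stretch they have in common is printed because it bears on whether a read could be assigned to either gene.
Six3 and Six6 coding run: tggtcgctgcccgtggcccc
It spans 20 bases, at chr17:85621579-85621598 in Six3 and chr12:72940158-72940177 in Six6, both on the plus strand of GRCm38.

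**Figure D3:**
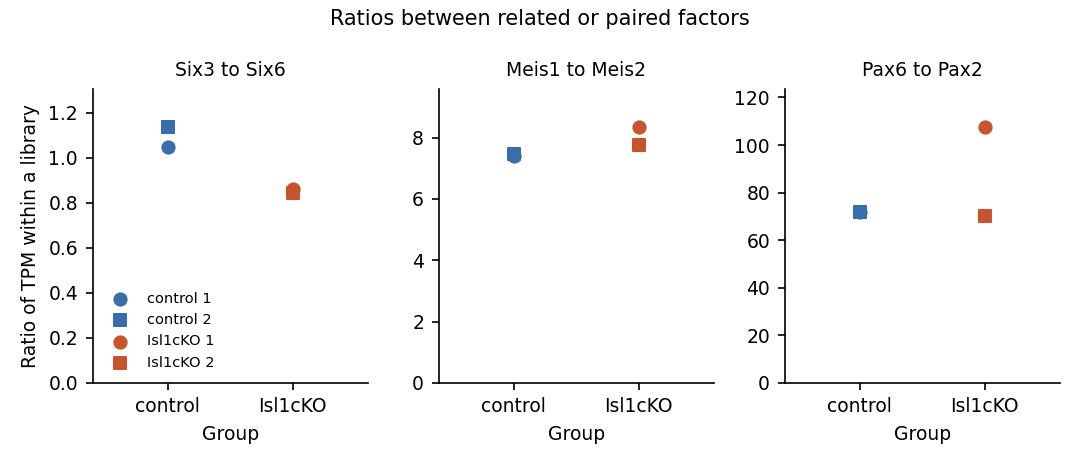
Ratio of TPM within each library (vertical axes, each starting at 0) for 3 pairs of factors, by group; circles are replicate 1 and squares replicate 2. The Six3 to Six6 points lie above 1 in both controls and below 1 in both libraries labelled Isl1cKO, while the Pax6 to Pax2 points spread from 70.2 to 107 within Isl1cKO.

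Sox2 and Pax2 varied more between the 2 libraries labelled Isl1cKO than between the groups. The same held by less for Rax (0.16 against 0.14 on the log2 scale) and Meis2 (0.16 against 0.09). Sox2, the SoxB1 factor of neural progenitors (chromosome 3, 34649995 to 34652460, plus strand), measured 336 and 396 TPM in control, and 281 and 428 TPM in the Isl1cKO-labelled libraries, which thus held both its lowest and its highest value. The log2 difference between those libraries was 0.60, against 0.23 between the controls. The log2 fold change of -0.07 (SE 0.23) had an interval equal to 0.622-fold to 1.45-fold and an adjusted p-value in limma of 0.928. It was 0.23 without Isl1cKO replicate 1 and 0.04 without control replicate 2, on the other side of 0.

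Pax2, the paired-domain factor of the optic stalk (chromosome 19, 44746601 to 44838269, plus strand), stood at 7.48 TPM in both controls and at 5.68 and 8.53 TPM in the Isl1cKO-labelled libraries. The groups overlapped, since the controls lay between these values. The log2 fold change of -0.09 (SE 0.19) had an interval equal to 0.665-fold to 1.33-fold and an adjusted p-value in limma of 0.889. It was 0.17 without Isl1cKO replicate 1 and 0.04 after quantile normalization. The ratio of Pax6 to Pax2 was 71.8 and 72.0 in the controls, and 107 and 70.2 in the Isl1cKO-labelled libraries (exact permutation p = 1, also after adjustment). Its log2 difference of 0.27 was -0.04 without Isl1cKO replicate 1.

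Vsx1, a homeobox gene of later bipolar cells, was below 1 TPM in each library and was not tested. It measured 0.180 and 0.355 TPM in control, and 0.417 and 0.412 TPM in the Isl1cKO-labelled libraries (chromosome 2, 150680702 to 150689137, minus strand). Control replicate 1 held the lowest value, and both Isl1cKO-labelled libraries lay above both controls, at levels too low for the filter. Of 7 bipolar genes, Grm6, Cabp5 and Scgn were likewise below 1 TPM in each library. The other 4 were tested and 0 passed, and 2 had an unadjusted p-value under 0.05 in limma. Those were Prkca, with 2.44 and 2.33 TPM in control against 1.98 and 1.67 TPM, and Bhlhe23, with 1.86 and 1.93 TPM against 0.903 and 1.20 TPM. Trpm1 stood at 27.1 to 33.1 TPM and Otx2 at 104 to 132 TPM, with log2 fold changes of 0.16 and -0.12.

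Transcripts that overlap or adjoin the factors were read beside them, because the tables do not say whether reads were assigned by strand. The antisense gene Six3os1, next to Six3, was more abundant than Six3 itself, with 499 and 480 TPM in control, then 559 and 465 TPM in the Isl1cKO-labelled libraries. Pax6os1 measured 11.1, 13.9, 12.0 and 14.3 TPM over the same libraries, and Six6os1, listed under the ID 4930447C04Rik, measured 48.9, 51.3, 56.3 and 46.6 TPM. Sox2ot, the noncoding gene whose body contains Sox2, measured 9.63 and 8.81 TPM in control, and 6.81 and 6.50 TPM in the Isl1cKO-labelled libraries, a log2 fold change of -0.42 (SE 0.09, adjusted p-value in limma 0.214). None of the 5 genes of this list passed over all genes, and 1 had an unadjusted p-value under 0.05. For Six3os1, Pax6os1 and Six6os1 the groups overlapped, with log2 fold changes of 0.06, 0.07 and 0.03.

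Of 4 tested genes in the list of visual system homeobox and related factors, 0 passed and 0 had an unadjusted p-value under 0.05, with a median log2 fold change of 0.12. Lhx2, an eye-field LIM factor, measured 176 and 174 TPM in control, and 174 and 211 TPM in the Isl1cKO-labelled libraries. Otx2, of photoreceptor and pigment epithelial precursors, stood at 132 and 121 TPM against 130.1 and 104 TPM. Otx1, also expressed at the ciliary margin, had the largest difference of the list, from 21.7 and 28.1 TPM to 28.7 and 40.8 TPM (log2 fold change 0.46, adjusted p-value in limma 0.499, and 0.21 without Isl1cKO replicate 2).

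Of the relatives of Six3 and Six6 and their Eya and Dach cofactors, 9 of 10 genes were tested and 0 passed, with a median of -0.01 and 1 unadjusted p-value under 0.05. That gene was Eya1, a transcriptional coactivator and phosphatase, with 4.69 and 3.86 TPM in control, then 2.47 and 2.30 TPM in the Isl1cKO-labelled libraries (log2 fold change -0.64, SE 0.11, adjusted p-value in limma 0.158). The abundant cofactors Eya2 (94.5 to 109 TPM) and Dach1 (87.4 to 98.7 TPM) had overlapping groups. Six4 had a log2 fold change of 0.26, or 0.11 without control replicate 1. That of Eya4 was -0.24, or -0.013 without Isl1cKO replicate 2. All 7 other Pax genes of the list were below 1 TPM in each library, and Pax4 was listed at 0.

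Of 9 Meis partners, all were tested and 0 passed, with a median of 0.10 and 2 unadjusted p-values under 0.05. Meis3 measured 92.9 and 98.8 TPM in control, and 74.4 and 71.6 TPM in the Isl1cKO-labelled libraries, a log2 fold change of -0.39 (SE 0.08, adjusted p-value in limma 0.220), so that its sign was opposite to that of Meis1. Pbx4 stood at 16.3 and 17.2 TPM against 19.5 and 23.9 TPM (log2 fold change 0.35). Tgif1, a TALE repressor, had a log2 fold change of 0.36, or 0.19 without control replicate 1. Pbx2, which binds DNA together with Meis proteins, had a log2 fold change of 0.19, or 0.09 without Isl1cKO replicate 2.

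Of 7 Sox relatives 4 were tested, 0 passed and 3 had an unadjusted p-value under 0.05, and the median was -0.73. Sox1, a SoxB1 relative of Sox2, measured 4.13 and 3.20 TPM in control, and 1.13 and 1.25 TPM in the Isl1cKO-labelled libraries (log2 fold change -1.08, SE 0.13, adjusted p-value in limma 0.0764). Sox8 stood at 12.8 and 9.68 TPM against 5.15 and 5.32 TPM (log2 fold change -0.96, adjusted p-value in limma 0.129), and Sox9 at 33.8 and 26.4 TPM against 19.3 and 22.6 TPM (-0.50 and 0.342). Sox3, the other SoxB1 gene tested, measured 24.0 and 24.9 TPM in control, and 20.7 and 26.4 TPM in the Isl1cKO-labelled libraries. Like Sox2 it had its lowest and its highest value in the latter. With the replicate block described with the other alternatives, Sox1 passed (adjusted p-value in limma 0.0344). Sox2 and Sox1 share longer coding stretches than the other pairs compared, so the longest is printed, and 10 of 927 windows of 31 bases in Sox2 also occur in Sox1.
Sox2 and Sox1 coding run: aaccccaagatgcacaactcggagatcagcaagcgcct
It spans 38 bases, at chr3:34650608-34650645 in Sox2 and chr8:12396577-12396614 in Sox1, both on the plus strand of GRCm38.

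**Figure D4:**
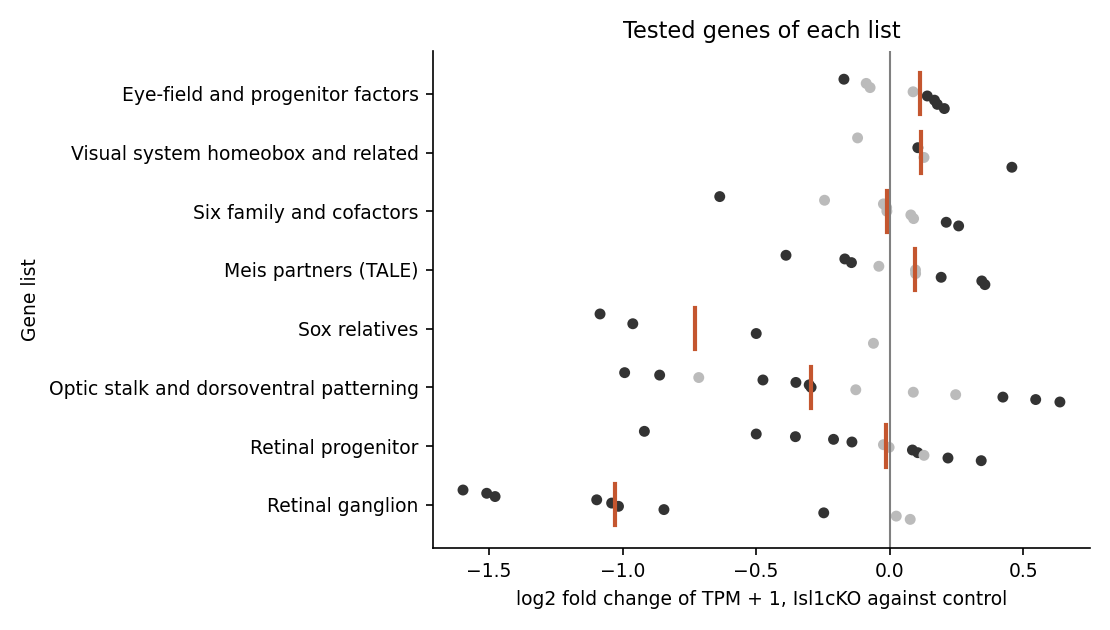
Log2 fold change of TPM + 1 (horizontal axis) of each tested gene in 8 lists; dark points have groups that do not overlap, grey points overlap, and the vertical bars are list medians. The eye-field and progenitor factors lie between -0.17 and 0.20, while the ganglion cell list has a median of -1.03 and the Sox relatives one of -0.73.

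Of 12 genes in the retinal progenitor list, 0 passed, 3 had an unadjusted p-value under 0.05, 5 had fold changes above 0 and 7 below, and the median was -0.01. Ccnd1, the D-type cyclin of retinal progenitors, measured 1944 and 1498 TPM in control, and 848 and 961 TPM in the Isl1cKO-labelled libraries (log2 fold change -0.92, adjusted p-value in limma 0.158). Fgf15, a progenitor growth factor, stood at 2012 and 1816 TPM against 1521 and 1473 TPM (-0.35 and 0.285). Sfrp2, a secreted Wnt modulator, stood at 1577 and 1787 TPM against 1928 and 2352 TPM (0.34 and 0.435). The intervals of the factors' own fold changes reached at most 0.54 in size on the upper side and -0.68 on the lower, both for Sox2.

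Pax2 was set beside the genes that pattern the optic stalk and the dorsoventral axis of the cup, because its 2 libraries labelled Isl1cKO differed. Of these 13 genes 0 passed, 1 had an unadjusted p-value under 0.05, and the median was -0.29. That gene was Ntn1, a guidance cue at the optic disc, with 10.6 and 8.85 TPM in control, then 4.58 and 4.16 TPM in the Isl1cKO-labelled libraries (log2 fold change -0.99, SE 0.11, adjusted p-value in limma 0.0757). It passed at a filter of 5 TPM (0.0490), with FPKM (0.0349) and with the replicate block (0.0227). Vax1, Vax2 and Aldh1a3, named after their values were seen, mark the stalk and the ventral retina. Vax1 had the same order over the libraries as Pax2 in Isl1cKO, at 9.70 and 16.3 TPM in replicates 1 and 2, around controls of 11.5 and 12.1 TPM. Vax2 measured 88.7 and 95.5 TPM in control, and 109.6 and 166 TPM in the Isl1cKO-labelled libraries, while Aldh1a3 had 118 and 98.6 TPM against 132 and 215 TPM. The dorsal genes Tbx5 (16.9 and 18.8 TPM against 15.1 and 5.65 TPM) and Aldh1a1 (725 and 1385 TPM against 925 and 402.4 TPM) were lowest in Isl1cKO replicate 2. Nr2f1 was highest there, at 237 TPM against 165 to 188 TPM in the others. When Isl1cKO replicate 2 was left out, Aldh1a3 had a log2 fold change of 0.29 in place of 0.64, Tbx5 had -0.22 in place of -0.86, and Aldh1a1 had -0.12 in place of -0.71. As these genes were picked with their values known, their order over the libraries is a description and says nothing of how Isl1cKO replicate 2 was made up.

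**Figure D5:**
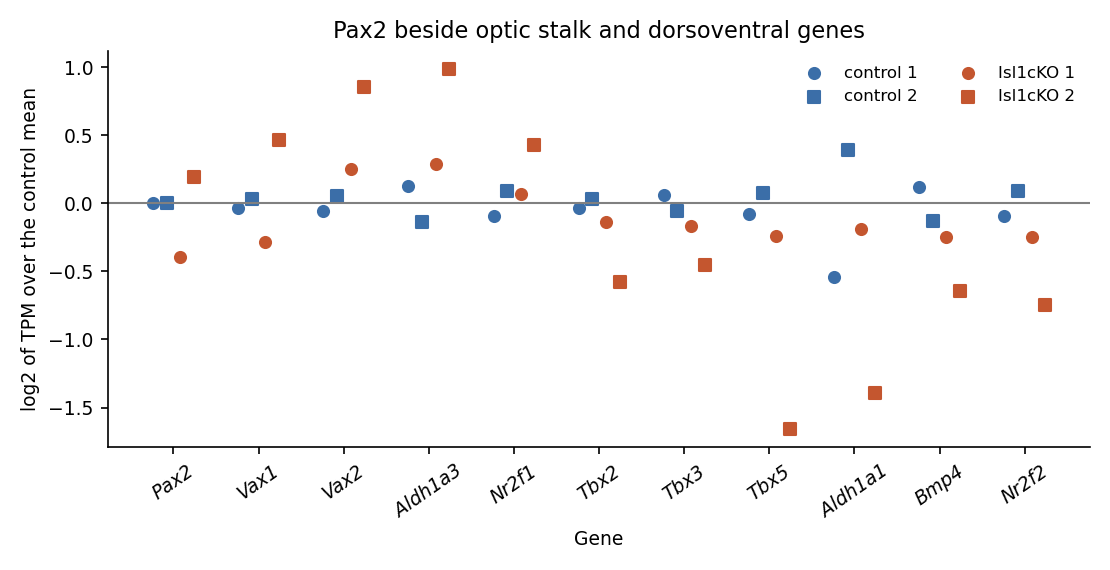
Log2 of each library's TPM over the control mean (vertical axis) for Pax2 and 10 optic stalk and dorsoventral genes, chosen after their values were seen; circles are replicate 1 and squares replicate 2. Isl1cKO replicate 2 lies above the other libraries for Pax2, Vax1, Vax2, Aldh1a3 and Nr2f1 and below them for Tbx2, Tbx3, Tbx5, Aldh1a1, Bmp4 and Nr2f2.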

How the data were processed

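Total RNA of dissected retina was made into strand-specific, poly(A)-selected libraries, per the labels' protocols. HISAT2, SAMtools and StringTie, with the build mm10, are named in the submitters' processing notes, without versions or roles. Per the file headers, the authors deposited for each gene a TPM, an FPKM (per kilobase and library total) and a mean coverage per base, a signal not scaled to depth. Read counts are not given. Aligned gigabases were taken as the median ratio of coverage to FPKM.

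TPM were summed over repeated rows of a gene. The 13984 genes with at least 1 TPM in at least 2 libraries were fitted with limma 3.58.1 (R 4.3.3) on log2(TPM + 1), with genotype as the only term and Benjamini-Hochberg adjustment over all of them at 0.05. This scale understates changes of low genes. The model was tested on simulated data. The 9 factors and all lists were chosen with earlier results of these data known. Within a list, genes past the threshold, or else the 3 with the largest absolute change, and the 2 most abundant were named. For the factor with the smallest p-value, the 3 genes of closest pattern were named, leaving out predicted genes and pseudogenes. Vsx1, below the filter, has a fold change without a test. A few genes that the rule names, and 1 ratio, are not reported here.

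Promoter runs came from RefSeq (GRCm38.p6), where 8 of the 9 factors matched by symbol. Rax is named only. The longest coding sequence of each gene in GENCODE M21 was compared with Biopython 1.88. Alternatives were other pseudocounts, filters, scalings, units and variance priors, testing without crystallin, haemoglobin and sex-linked genes, the replicate number as a block, and leaving out each library.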

Additional observations from a re-analysis of the deposited data

How the results depend on the processing

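In all 128 refits of the 8 tested factors, 0 passed the threshold and 4 changed sign. Scaled coverage and the removal of genes on several rows were chosen after seeing the data. The cause of each change below was not tested. Pax2 (-0.09) was 0.0365 after quantile normalization, and over the left-out libraries ranged from -0.34 to 0.17. Sox2 (-0.07) ranged from -0.37 to 0.23, with 0.0436 without control replicate 2 and 0.229 without Isl1cKO replicate 1. Sox3 (-0.06) was 0.00835 after quantile normalization. Leaving out each library in turn also took across 0 the values of Sox3 (-0.228 to 0.107), 4930447C04Rik (-0.102 to 0.167, with -0.00281 without control replicate 1), Six3os1 (-0.0747 to 0.190), Lhx2 (-0.0085 to 0.266), Otx2 (-0.279 to 0.0392), Pax6os1 (-0.0801 to 0.229, with -0.0441 without Isl1cKO replicate 2), Vax1 (-0.257 to 0.434) and the log2 difference of the Pax6 to Pax2 ratio (-0.0355 to 0.58). Without crossing 0, the left-out libraries also moved by over 1.5 times Isl1 (0.014 to 0.54), Rax (0.06 to 0.22), Six6 (0.10 to 0.25), Six3 (-0.23 to -0.11), Meis2 (0.0064 to 0.17), Otx1 (0.21 to 0.70), Eya4 (-0.47 to -0.013), Six4 (0.11 to 0.40), Tgif1 (0.19 to 0.52), Pbx2 (0.09 to 0.29), Pbx4 (0.21 to 0.48), Sfrp2 (0.20 to 0.49), Sox9 (-0.67 to -0.33), Vax2 (0.25 to 0.84), Nr2f1 (0.07 to 0.43), Aldh1a3 (0.29 to 0.99), Aldh1a1 (-1.31 to -0.12) and Tbx5 (-1.5 to -0.22). At an unadjusted p-value under 0.05, 2 of the 8 factors were counted with FPKM, median-ratio or upper-quartile scaling or no filter. With the variance trend 3 were. Over all tested genes the counts ran from 1546 of 12472 with FPKM to 2072 of 19784 without a filter. Vsx1 (0.16) was 0.53 at a pseudocount of 0.1, and ranged from 0.06 to 0.26 over the left-out libraries. It has no value under the alternatives that keep it below the filter and rest on the fit.

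The count of 69 called genes was 44 at a pseudocount of 0.1, 15 without a filter, 127 with FPKM, 110 under a variance trend, and 43 when crystallin, haemoglobin and sex-linked genes were removed. Leaving out 1 library gave 10 to 37, where the lone library of a group is assumed to vary like the others. The replicate numbers correlated at 0.126 in their deviations, and nothing in the labels ties the 2 pairs to a litter or day, so they share only a number. Fitting the replicate block, 265 genes passed and 0 of the 8 factors did, with an adjusted p-value in limma from 0.457 for Meis1 to 0.881 for Sox2. Read counts are not given, and no detection limit was derived for Vsx1 or for genes listed at 0. The mean coverage per base of Vsx1 was 0.944 and 1.76 in control, and 2.23 and 2.04 in the Isl1cKO-labelled libraries.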
